A study of Homo sapiens with 12 samples.

Results

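The genes described here are the integrin subunits, laminin chains, numbered cadherins, ICAMs and VCAM1 of human MRC5 fibroblasts. They were chosen by symbol from the deposited count table, which gave 69 genes of 57500 listed, namely 18 integrin alpha genes, 8 integrin beta genes, 12 laminin genes, 23 cadherin genes, 6 genes of the ICAM and VCAM class and 2 further genes that carry an integrin name without being a subunit. The latter are ITGB1P1, a pseudogene of ITGB1, and ITGBL1, which encodes a secreted beta-like protein. After a filter on low counts, 42 of the 69 were tested, beside 16251 genes tested in all.

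MRC5 cells are human fibroblasts of embryonic lung. RNA was sequenced from 12 libraries in 4 groups of 3, all of the same line, so each group describes 1 line in culture. Prol denotes proliferating cells. Sen(IR) cells had received X-rays at 20 Gy, which made them senescent, and were collected 10 to 12 days later. Sen(IR)+UK5099 and Sen(IR)+CTPI2 are irradiated cells that were given an inhibitor from day 1 after irradiation: UK5099, which blocks the mitochondrial pyruvate carrier, at 100 μM, or CTPI2, which blocks the mitochondrial citrate carrier SLC25A1, at 15 or 30 μM. The sources used here do not say which CTPI2 dose was sequenced, so the inhibitors are compared without matched doses. The comparisons asked how senescence, and each carrier inhibitor within it, altered the adhesion genes.

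Library totals ran from 20597736 to 28245693 counts. Prol libraries spent 0.771 to 0.83% of their counts on the adhesion genes and Sen(IR) libraries 1.18 to 1.22%, while UK5099 libraries spent 0.926 to 0.984% and CTPI2 libraries 1.14 to 1.19%. Levels are given as CPM (counts scaled to library size), which serve to compare 1 gene between groups, and as CPM per kilobase of annotated exon where different genes are compared. A gene was called when edgeR's quasi-likelihood test gave a Benjamini-Hochberg adjusted p under 0.05 over all genes tested and an absolute log2 fold change over 0.5, and an error after ± is the SD of 3 libraries for a level and the SE for a log2 fold change. That SE was derived from the F statistic of the test. The 95% interval of a log2 fold change spans 1.96 SE to each side, without adjustment over genes. It is narrower than the test's own would be, and can exclude 0 where the adjusted p is over the limit. The study's legends describe the RNA-seq replicates as independent conditions or experiments, and the labels do not say whether they were separate cultures, so the p-values measure the spread between these libraries. In bulk RNA, fewer cells of a type and less RNA per cell cannot be told apart.

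Integrins are pairs of an alpha and a beta chain that hold a cell to its matrix. The alpha chain largely sets which ligand is bound, and the beta tail couples the receptor to actin through talin and kindlin. Laminins are trimers of an alpha, a beta and a gamma chain that build the basement membrane, where integrins and dystroglycan bind them. Cadherins join neighbouring cells through calcium-dependent contacts anchored by catenins, and ICAM1 and VCAM1 are immunoglobulin-type receptors that leukocyte integrins recognise, long known as NF-kappaB targets of inflamed endothelium and stroma.

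Because the ICAM and VCAM class had the largest median change of the families, the 250 bases before the RefSeq start site of its 3 tested genes are shown from the RefSeq promoter table (GRCh38.p14, all on the plus strand). The windows lie at chr1:100719492-100719741 for VCAM1, chr19:10270870-10271119 for ICAM1 and chr19:10289702-10289951 for ICAM5. Capitals mark matches to the NF-kappaB consensus, searched on both strands.
VCAM1: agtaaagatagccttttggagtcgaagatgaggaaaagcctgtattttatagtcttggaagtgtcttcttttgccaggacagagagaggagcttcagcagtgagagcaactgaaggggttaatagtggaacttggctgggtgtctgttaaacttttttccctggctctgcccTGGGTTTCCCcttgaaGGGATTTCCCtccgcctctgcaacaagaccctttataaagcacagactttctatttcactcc
ICAM1: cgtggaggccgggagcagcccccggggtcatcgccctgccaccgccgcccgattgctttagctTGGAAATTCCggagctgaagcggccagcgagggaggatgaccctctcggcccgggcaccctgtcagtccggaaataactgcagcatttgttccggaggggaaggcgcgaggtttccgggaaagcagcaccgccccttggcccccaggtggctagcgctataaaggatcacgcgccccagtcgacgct
ICAM5: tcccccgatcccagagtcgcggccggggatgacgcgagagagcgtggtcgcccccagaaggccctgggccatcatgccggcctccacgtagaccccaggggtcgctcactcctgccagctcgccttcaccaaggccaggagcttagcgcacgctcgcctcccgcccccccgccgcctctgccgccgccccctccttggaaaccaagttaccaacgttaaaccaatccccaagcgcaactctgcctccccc
The VCAM1 window held 2 matches, whose first bases lie 78 and 62 bases before the start, and the ICAM1 window held 1, at 187 bases before it. The ICAM5 window held 0, which says only that these letters are not in it. A TATAAA match began 30 bases before the ICAM1 start and 29 bases before that of VCAM1, which also held it on the other strand at 31 and 205 bases. Over all 35116 promoters of the table, 17.5% of windows held an NF-kappaB match and 10.7% held TATAAA. For an adhesion gene with several promoters in the table only the first was used, whereas these shares cover every promoter. Of the 69 genes, 44 had a promoter in the table, 31 of them tested, and 10 of these 31 windows (32.3%) held an NF-kappaB match, namely those of ICAM1, ITGA1, ITGA10, ITGA11, ITGA5, ITGAV, ITGB1, ITGB8, LAMB3 and VCAM1. In Sen(IR) against Prol 6 of these 10 genes were called higher and 3 lower, beside 15 higher and 9 lower among all 31 genes with a window and 24.8% and 22.4% of all genes tested. A match is a description of letters, not a site of binding.

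Irradiation-induced senescence altered most of the tested adhesion genes. In Sen(IR) against Prol 30 of 42 were called, 19 higher and 11 lower, beside 47.2% of all genes tested (24.8% higher and 22.4% lower). For 35 of the 42 all Sen(IR) libraries lay on one side of all Prol libraries, beside 70.9% of all genes. The median log2 fold change of the 42 was 0.33, beside 0.01 for all genes. Upper-quartile scaling moved the median of all genes in this comparison to 0.14 and the split of the 42 to 20 higher and 7 lower. It also moved the split of all genes tested, to 4729 higher and 2939 lower from 4033 and 3644 in the main fit. The changes of ITGA4, ITGA5, ITGA10 and CDH4 fell below the limits for a call under this scaling. The families differed in their counts: 7 of 13 integrin alpha genes were called lower and 2 higher, whereas 3 of 4 beta genes, 5 of 11 laminin genes, 4 of 9 cadherins and all 3 tested genes of the ICAM and VCAM class were called higher. Of the same families, 1 beta gene, 1 laminin gene and 2 cadherins were called lower.

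UK5099 lowered a smaller set. Against Sen(IR), 17 of the 42 were called, 3 higher and 14 lower, beside 20.8% of all genes (8.76% higher and 12.1% lower), with a median of −0.29 beside 0.01. Genes of the mitochondrial genome took 3.81 to 4.23% of the counts in UK5099 libraries and 2.78 to 3.21% in Sen(IR) libraries (2.39 to 3.28% with CTPI2), and the part of this in the results was not tested. The genes called higher were ITGA10, CDH24 and CDH26, each of which lost its call when some single library was left out. Laminins made up 7 of the 14 lower calls, and the others were 3 integrin alpha genes, VCAM1, ICAM1, CDH10 and ITGBL1. Upper-quartile scaling gave 5 higher and 13 lower, beside 1524 higher and 1888 lower among all genes (1423 and 1963 in the main fit). Without the limit on fold change 32 of the 42 passed, beside 45.4% of all genes, and 32 of the 42 had separate libraries, beside 56.6%. CTPI2 gave no call in edgeR's test against the same Sen(IR) libraries, beside 0.166% of all genes (0.0185% higher and 0.148% lower), and 0 also with DESeq2. Of the 42, 11 had an unadjusted p under 0.05, beside 7.27% of all genes, 4 passed the adjusted p alone, beside 0.486%, and 14 had separate libraries, beside 15.1%. Between the inhibitors, UK5099 against CTPI2 gave 15 calls, 1 higher and 14 lower, beside 19.9% of all genes (8.2% higher and 11.7% lower), and 26 without the fold limit, beside 44.5%. Against Prol, cells with UK5099 had 13 genes called higher and 13 lower, beside 26.9% and 26.2% of all genes (53.1% in either direction).

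**Figure D1:**
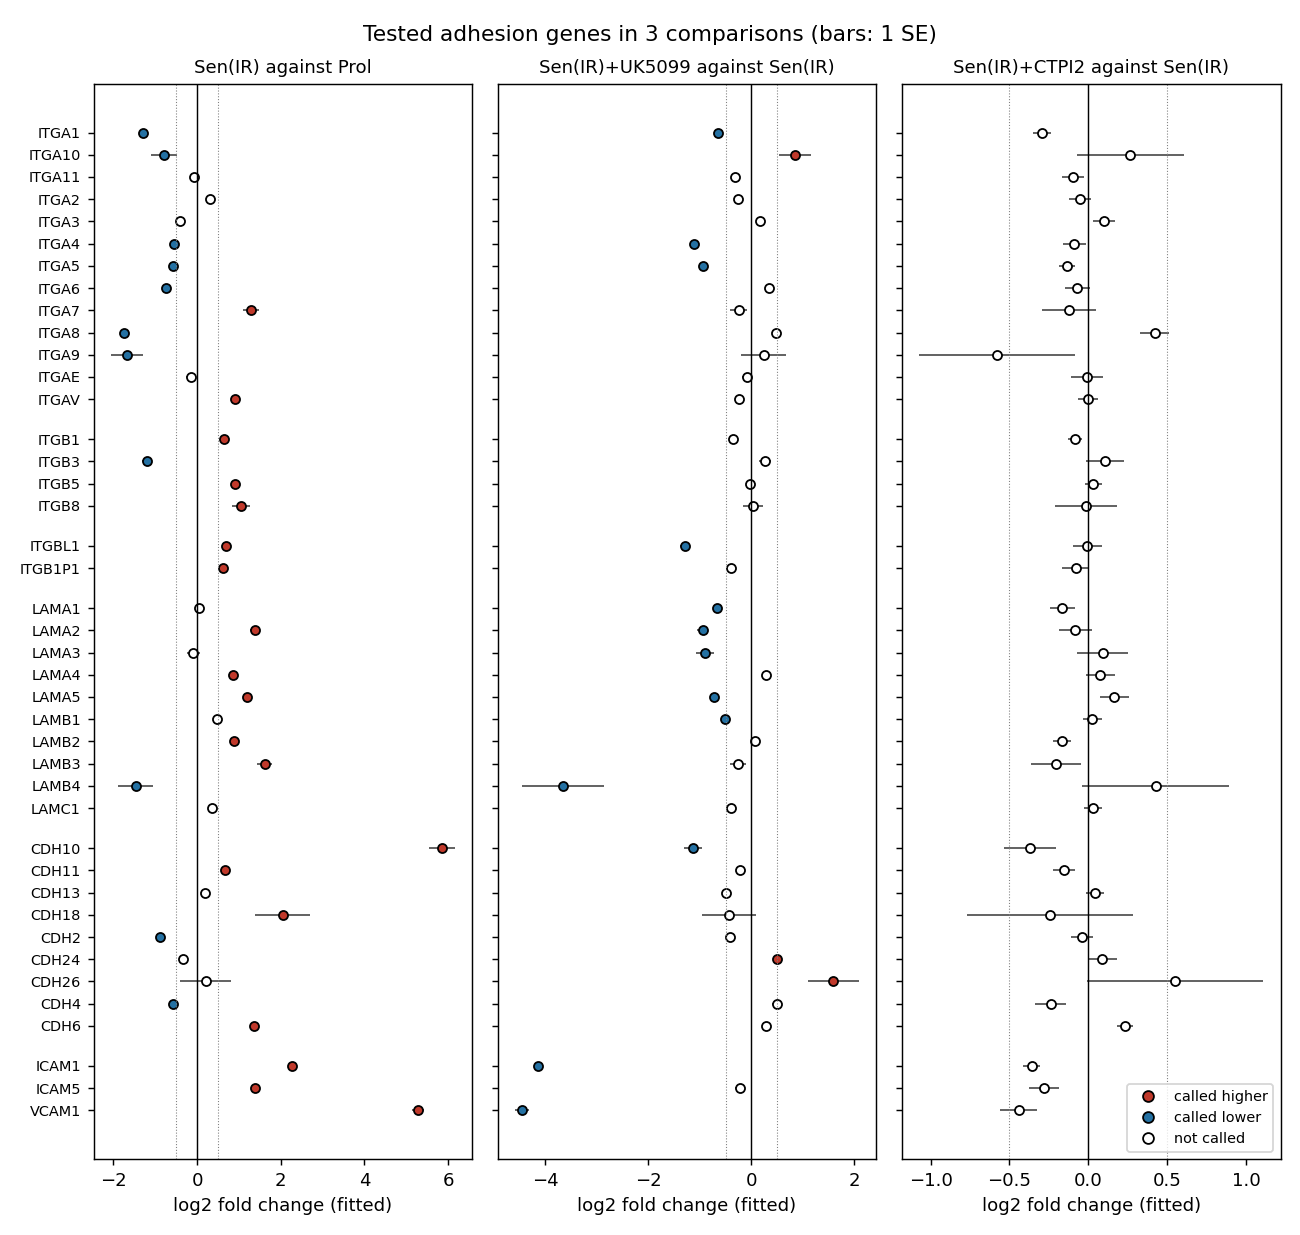
Fitted log2 fold change (x axis, 1 SE as bars, its scale differing between panels) of 41 of the 42 tested adhesion genes in 3 comparisons, with red for genes called higher, blue for genes called lower, white for genes not called, and dotted lines at the 0.5 limit. VCAM1, ICAM1 and CDH10 lie farthest right in the left panel, VCAM1 and ICAM1 farthest left in the middle panel, and no gene is filled in the right panel.

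VCAM1 and ICAM1 had the widest range of the class. VCAM1 (ENSG00000162692, chromosome 1, 100719742 to 100739045), which binds the alpha4 beta1 integrin of leukocytes, stood at 16.1, 31.3 and 18.1 CPM in Prol and at 828, 874 and 831 CPM in Sen(IR). With UK5099 its libraries held 44.6, 36.8 and 34.6 CPM and with CTPI2 616, 616 and 632 CPM. The Prol and UK5099 libraries were low, those of Sen(IR) and CTPI2 high, and no group overlapped another. The gene rose 38.8-fold with irradiation (log2 fold change 5.28 ± 0.15, adjusted p = 2.12e-18 by edgeR) and was 21.9-fold lower with UK5099 (log2 fold change −4.45 ± 0.14, adjusted p = 6.11e-17). A rise over Prol remained with UK5099 (log2 fold change 0.83 ± 0.14, adjusted p = 2.30e-05). CTPI2 gave −0.44 ± 0.12 on the log2 scale with a 95% interval of −0.67 to −0.21 and an adjusted p of 0.151 by edgeR, over the limit, although its libraries lay below all those of Sen(IR). Over the 15 alternatives the adjusted p ran from 1.35e-13 to 0.52 at a log2 fold change of −0.46 to −0.42. It passed the p limit with no filter on low counts and with only these groups fitted, and the fold limit under none of the 15; the cause was not tested.

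ICAM1 (ENSG00000090339, chromosome 19, 10271093 to 10286615), the ligand of the leukocyte beta2 integrins, also rose with irradiation, but with UK5099 it lay below Prol. Its libraries held 62.4, 64.0 and 63.4 CPM in Prol, 302, 307 and 301 CPM in Sen(IR), 19.3, 16.6 and 15.6 CPM under UK5099 and 237, 243 and 229 CPM with CTPI2. The 4 groups did not overlap, and UK5099 libraries were the lowest, under those of Prol. The gene rose 4.80-fold with irradiation (log2 fold change 2.26 ± 0.06, adjusted p = 4.91e-19 by edgeR), was 17.7-fold lower with UK5099 than in Sen(IR) (log2 fold change −4.15 ± 0.07, adjusted p = 2.64e-22) and 3.69-fold lower than in Prol (log2 fold change −1.88 ± 0.07, adjusted p = 4.97e-17). With CTPI2 the difference passed edgeR's test but not the fold limit (log2 fold change −0.36 ± 0.05, adjusted p = 9.40e-04). The direct test of UK5099 against CTPI2 gave −3.79 ± 0.07 for ICAM1 and −4.01 ± 0.14 for VCAM1 on the log2 scale. ICAM1 shares 25.4% of its exon bases with the overlapping RNAs ICAM4-AS1 and LIMASI, and whether the counting used strand is not given in the sources used here.

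ICAM5, also called telencephalin and known from neurons, lies next to ICAM1 on chromosome 19 (ENSG00000105376, 10289952 to 10296778). Its libraries held 7.46, 6.22 and 6.84 CPM in Prol, 16.7, 17.1 and 19.7 CPM in Sen(IR), 15.3, 14.4 and 16.4 CPM under UK5099 and 15.5, 14.9 and 13.6 CPM with CTPI2. All irradiated groups lay above Prol, and ICAM5 rose with irradiation (log2 fold change 1.38 ± 0.10, adjusted p = 6.04e-11 by edgeR). UK5099 gave −0.22 ± 0.09 on the log2 scale (adjusted p = 0.0661 by edgeR, interval −0.40 to −0.03), not called. Per kilobase ICAM1 was the first of the class in Prol, at 18.3 ± 0.236, and VCAM1 was first in the other groups. ICAM2, ICAM3 and ICAM4 did not pass the filter, and ICAM4 had no count in any library.

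**Figure D2:**
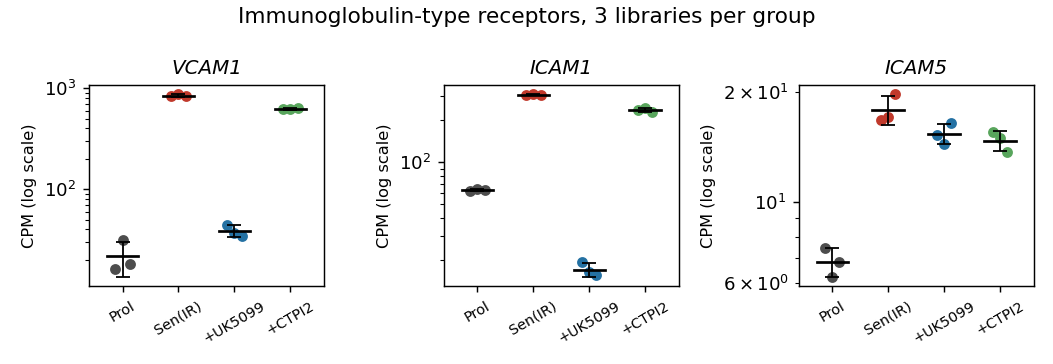
Level of VCAM1, ICAM1 and ICAM5 in CPM on a log axis, with a point for each library, the mean as a line and the SD as a bar. VCAM1 and ICAM1 are high in Sen(IR) and Sen(IR)+CTPI2 and low with UK5099, whereas ICAM5 stays above Prol in all irradiated groups.

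Of the 9 integrin alpha genes called with senescence, 7 were lower. ITGA1 (ENSG00000213949, chromosome 5, 52787916 to 52959209), the alpha chain of a collagen receptor, stood at 773, 681 and 714 CPM in Prol and 291, 301 and 294 CPM in Sen(IR), and at 203, 179.6 and 183 CPM under UK5099 and 234, 255 and 233 CPM with CTPI2. No group overlapped another, and UK5099 was the lowest. It fell with irradiation (log2 fold change −1.29 ± 0.06, adjusted p = 6.64e-15 by edgeR) and was lower again with UK5099 (log2 fold change −0.65 ± 0.06, adjusted p = 4.88e-09), while CTPI2 gave −0.30 ± 0.06 with an adjusted p of 0.0141, under the fold limit. ITGA1 shares 13.2% of its exon bases with other genes, PELO among them.

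ITGA8, whose product pairs with beta1 and binds nephronectin, had the largest fall of the alpha genes with mean log2 CPM above 0. Its libraries held 117, 108 and 105 CPM in Prol, 30.4, 32.7 and 35.8 CPM in Sen(IR), 54.9, 41.0 and 42.2 CPM under UK5099 and 43.0, 45.9 and 43.2 CPM with CTPI2. Prol lay far above the 3 irradiated groups, and the fall passed edgeR's test (log2 fold change −1.74 ± 0.09, adjusted p = 5.81e-14). Both inhibitors gave positive values against Sen(IR) that passed the p limit but not the fold limit (0.48 ± 0.09 with UK5099 and 0.42 ± 0.09 with CTPI2, adjusted p = 0.0348 for the latter).

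ITGA5 and ITGA4, the alpha chains of the fibronectin receptors alpha5 beta1 and alpha4 beta1, were lower with UK5099. ITGA5 held 543, 514 and 544 CPM in Prol, 361, 368 and 346 CPM in Sen(IR), 197, 187 and 180.2 CPM under UK5099 and 326, 336 and 317 CPM with CTPI2, and ITGA4 held 89.9, 75.2 and 73.2, then 53.6, 54.6 and 53.5, then 26.5, 22.9 and 25.3 and 52.7, 49.8 and 49.6 CPM in the same order. For both genes all UK5099 libraries lay under all others. ITGA4 shares 26.4% of its exon bases with the gene CERKL. UK5099 against Sen(IR) gave −0.93 ± 0.05 for ITGA5 (adjusted p = 7.92e-13 by edgeR) and −1.11 ± 0.08 for ITGA4 (adjusted p = 5.65e-11). UK5099 against CTPI2 gave −0.79 and −1.03, and these were the only alpha genes called between the inhibitors. The changes of irradiation itself were near the fold limit, at −0.57 for ITGA5 and −0.56 for ITGA4, and without Prol replicate 1 that of ITGA4 was −0.46 and no longer called.

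ITGAV, the alpha chain of the vitronectin and latent TGF-beta receptors, went the other way. Its libraries held 301, 320.3 and 278 CPM in Prol, 522, 569 and 581 CPM in Sen(IR), 472, 446 and 507 CPM under UK5099 and 520.2, 559 and 592 CPM with CTPI2. Every irradiated library lay above those of Prol (log2 fold change 0.90 ± 0.06, adjusted p = 2.11e-11 by edgeR). ITGA7, a laminin receptor chain of muscle, held 1.45, 1.29 and 1.23 CPM in Prol and 3.29, 3.22 and 3.14 CPM in Sen(IR) and rose without overlap (log2 fold change 1.28 ± 0.19, adjusted p = 3.03e-06 by edgeR). ITGA6, a laminin receptor chain, fell from 85.5 ± 11.5 to 50.7 ± 4.48 CPM (log2 fold change −0.75 ± 0.08, adjusted p = 1.93e-08).

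The remaining alpha genes were low or were not called. ITGA10, a collagen receptor chain of cartilage, was called lower with irradiation and higher with UK5099 (−0.79 and 0.85), at counts of 58, 30 and 58 in Prol, 24, 28 and 21 in Sen(IR) and 30, 61 and 68 with UK5099. Groups overlapped for it, and with DESeq2 its adjusted p was 0.0743 and 0.0672, so neither call held. The calls were also lost without any one of 4 libraries each: without Prol replicate 1 or 3, or Sen(IR) replicate 1 or 3, for the fall (−0.74 to −0.60), and without Sen(IR) replicate 1 or 3, or UK5099 replicate 2 or 3, for the rise (0.63 to 0.80). ITGA9 fell at counts of 36, 23 and 38 in Prol and 9, 5 and 12 in Sen(IR) (log2 fold change −1.68 ± 0.39, adjusted p = 5.77e-04 by edgeR). ITGA2, ITGA3, ITGA11 and ITGAE were called in neither Sen(IR) against Prol nor UK5099 against Sen(IR).

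Of the beta genes, ITGB1 (ENSG00000150093, chromosome 10, 32887273 to 33005792), the common partner of most alpha chains named above, was the most abundant per kilobase in every group, with 199 ± 7.52 CPM per kilobase in Prol and 309 ± 1.67 in Sen(IR). Its libraries held 3005, 2908 and 2786 CPM in Prol, 4499, 4520 and 4471 CPM in Sen(IR), 3582, 3469 and 3533 CPM under UK5099 and 4178, 4339 and 4211 CPM with CTPI2. Every irradiated library lay above Prol, and UK5099 libraries lay under those of Sen(IR). The rise was called (log2 fold change 0.63 ± 0.04, adjusted p = 1.47e-11 by edgeR), and the UK5099 value passed the p limit but not the fold limit (log2 fold change −0.35 ± 0.04, adjusted p = 7.84e-07). The pseudogene ITGB1P1 gave 0.63 and −0.40, and since it is a near copy of ITGB1 its reads cannot be assigned with certainty.

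ITGB5, a partner of alphaV, rose with irradiation and ITGB3, another partner of alphaV, fell. ITGB5 held 332, 298 and 329 CPM in Prol, 613, 611 and 586 CPM in Sen(IR), 625, 596 and 557 CPM under UK5099 and 603, 652 and 594 CPM with CTPI2 (log2 fold change 0.92 ± 0.06, adjusted p = 1.58e-12 by edgeR). ITGB3 held 45.0, 32.1 and 37.8, then 14.2, 19.7 and 16.1, then 21.1, 18.4 and 20.6 and 17.0, 17.6 and 19.1 CPM in that order (log2 fold change −1.20 ± 0.11, adjusted p = 3.10e-09). For both, no irradiated library overlapped Prol. ITGB8, which with alphaV activates TGF-beta, held 5.16, 12.9 and 6.28 CPM in Prol and 14.5, 18.1 and 17.6 CPM in Sen(IR) and rose (log2 fold change 1.05 ± 0.21, adjusted p = 1.52e-04). With UK5099 against Sen(IR) none of the 4 beta genes was called by edgeR, and 2 of the 4 had an unadjusted p under 0.05, beside 51.6% of all genes. ITGB3 shares 33.2% of its exon bases with other genes.

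**Figure D3:**
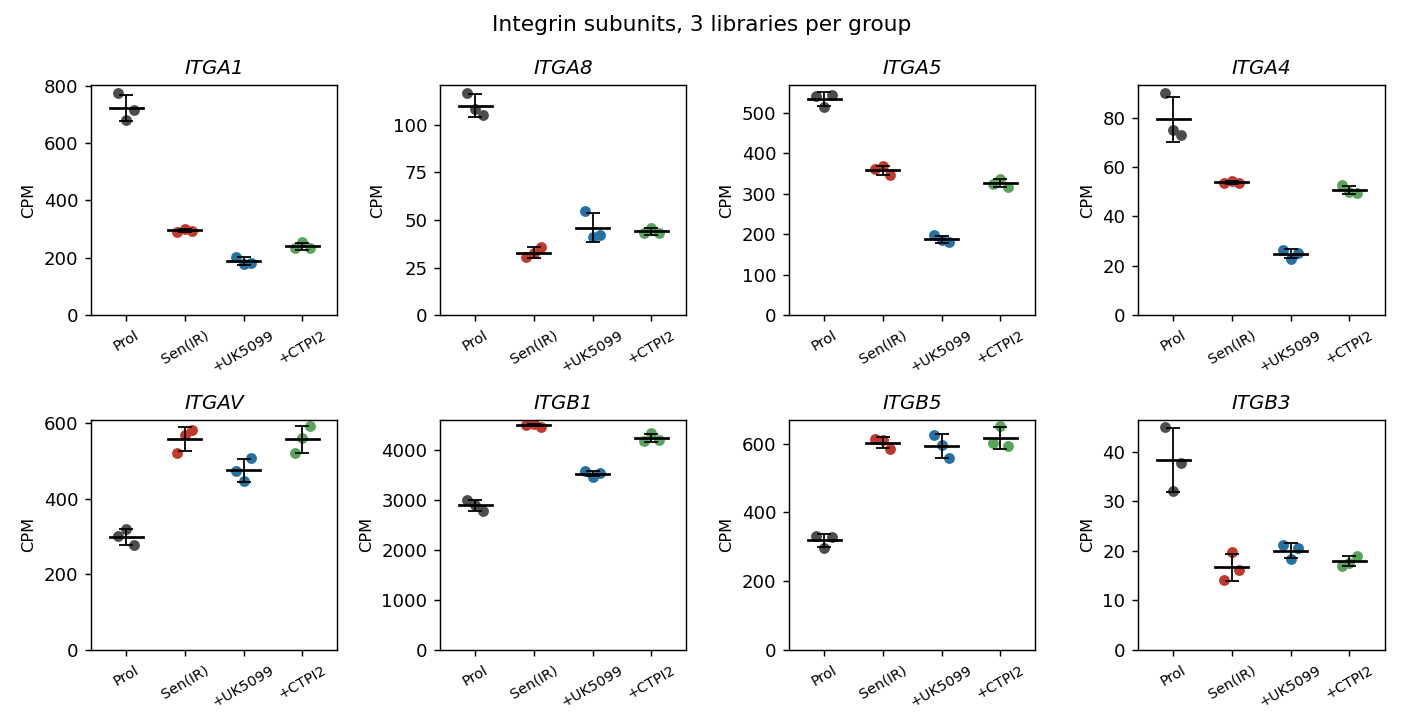
Level of 8 integrin subunit genes in CPM from 0, with a point for each library, the mean as a line and the SD as a bar. ITGA1, ITGA8 and ITGB3 drop from Prol to the irradiated groups, ITGAV, ITGB1 and ITGB5 rise, and ITGA5 and ITGA4 are lowest with UK5099.

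As sums per kilobase, which follow the most abundant genes, the alpha genes stood at 224 ± 11.2 in Prol, 175 ± 2.696 in Sen(IR), 135 ± 6.76 with UK5099 and 167 ± 3.91 with CTPI2, and the beta genes at 254 ± 8.74, 405 ± 3.98, 337 ± 7.53 and 390 ± 10.4 in that order. The make-up of the alpha sum differed between groups: ITGA5 held 32.3 ± 1.13% of it in Prol, 27.8 ± 0.62% in Sen(IR), 18.8 ± 0.562% with UK5099 and 26.5 ± 0.835% with CTPI2. ITGAV held 6.93 ± 0.68%, 16.5 ± 0.889%, 18.2 ± 1.38% and 17.3 ± 0.85% in the same order. ITGA5 was the first alpha gene per kilobase in Prol, Sen(IR) and CTPI2. With UK5099 ITGA2, a collagen receptor chain, was first at 29.4 ± 2.19 CPM per kilobase, followed by ITGA5 at 25.5 ± 1.15 and ITGAV at 24.6 ± 1.59, and the last pair overlapped between libraries.

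ITGBL1, the beta-like gene, held 17.3, 22.1 and 16.9 CPM in Prol, 29.9, 30.3 and 29.8 CPM in Sen(IR), 11.8, 13.9 and 11.2 CPM under UK5099 and 30.1, 30.8 and 28.6 CPM with CTPI2. The UK5099 libraries were the lowest. The gene rose with irradiation (log2 fold change 0.68 ± 0.09, adjusted p = 1.09e-06 by edgeR) and was lower with UK5099 (log2 fold change −1.28 ± 0.10, adjusted p = 2.90e-10). Other genes share 70.5% of its exon bases.

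Laminins rose in part with senescence, and UK5099 lowered 7 of the 11 tested chains, beside 12.1% of all genes called lower, with 0 called higher, beside 8.76%. LAMA2 (ENSG00000196569, chromosome 6, 128883138 to 129516566), the alpha chain of the muscle and mesenchymal laminin, held 21.5, 32.3 and 20.7 CPM in Prol, 64.7, 67.9 and 59.6 CPM in Sen(IR), 35.4, 34.8 and 29.8 CPM under UK5099 and 58.9, 64.3 and 58.4 CPM with CTPI2. Sen(IR) and CTPI2 were high, and the UK5099 libraries lay below them and overlapped those of Prol. It rose with irradiation (log2 fold change 1.37 ± 0.11, adjusted p = 3.32e-10 by edgeR) and was lower with UK5099 (log2 fold change −0.94 ± 0.11, adjusted p = 3.08e-07). LAMA5, a widespread alpha chain of mature basement membranes, held 13.2, 14.3 and 11.7, then 29.4, 29.2 and 31.4, then 21.1, 16.3 and 17.4 and 30.3, 34.9 and 35.6 CPM in the same order. Its values were 1.20 with irradiation, −0.72 with UK5099 and −0.88 for UK5099 against CTPI2, all called.

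LAMA3, an alpha chain of epithelial laminin, held 7.33, 10.4 and 5.54 CPM in Prol, 7.73, 7.34 and 6.71 CPM in Sen(IR), 3.97, 4.04 and 3.72 CPM under UK5099 and 7.36, 8.29 and 7.57 CPM with CTPI2 (log2 fold change −0.89 ± 0.17, adjusted p = 2.28e-04 for UK5099 against Sen(IR) by edgeR). LAMB3, a beta chain found with it in epithelium, held 1.53, 2.102 and 1.63 CPM in Prol and 5.16, 5.73 and 5.29 CPM in Sen(IR), rose with irradiation (log2 fold change 1.62 ± 0.18, adjusted p = 4.23e-08) and gave −0.27 ± 0.16 with UK5099, not called.

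Per kilobase the most abundant chains in Sen(IR) were LAMC1, LAMB1, LAMA4 and LAMB2, in that order. LAMB1, a common beta chain, held 759.6, 883 and 738 CPM in Prol, 1084, 1145 and 1064 CPM in Sen(IR), 797, 749 and 767 CPM under UK5099 and 1122, 1196 and 1036 CPM with CTPI2. Its UK5099 value lay at the limit (log2 fold change −0.51 ± 0.06, adjusted p = 6.43e-07 by edgeR), and the call was lost without Sen(IR) replicate 2 (−0.48), without UK5099 replicate 2 (−0.49) and with upper-quartile scaling (−0.49). LAMC1, the gamma chain of most trimers, gave 0.36 with irradiation and −0.40 with UK5099, both past the p limit but under the fold limit. LAMA4, an alpha chain of mesenchymal and vessel basement membranes, rose from 289.7 ± 62.6 to 522 ± 32.2 CPM (log2 fold change 0.85 ± 0.09, adjusted p = 3.75e-08 by edgeR) and stood at 639 ± 16.5 CPM under UK5099. LAMB2 rose from 147 ± 11.7 to 272 ± 12.4 CPM (log2 fold change 0.89 ± 0.06, adjusted p = 5.32e-12) and stood at 287 ± 9.004 CPM under UK5099. Per kilobase with UK5099 LAMA4 came second and LAMB1 was no higher than LAMB2 beyond the spread of the libraries.

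LAMA1, the alpha chain of embryonic laminin, held 56.4 ± 5.41 CPM in Prol, 57.99 ± 4.28 in Sen(IR), 36.5 ± 3.78 with UK5099 and 51.7 ± 3.10 with CTPI2, and was lower with UK5099 than in Sen(IR) (log2 fold change −0.67 ± 0.08, adjusted p = 5.54e-07 by edgeR). LAMB4 had 81 counts over the 3 Prol libraries, 25 in Sen(IR), 2 with UK5099 and 37 with CTPI2. The ratio of Sen(IR) to UK5099 was 15.03, with an exact 95% interval of 3.75 to 131 that covers counting error only. LAMC3 did not pass the filter. As a sum per kilobase the laminin genes stood at 178 ± 15.1 in Prol, 259 ± 11.6 in Sen(IR), 224 ± 8.18 with UK5099 and 260 ± 10.5 with CTPI2.

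**Figure D4:**
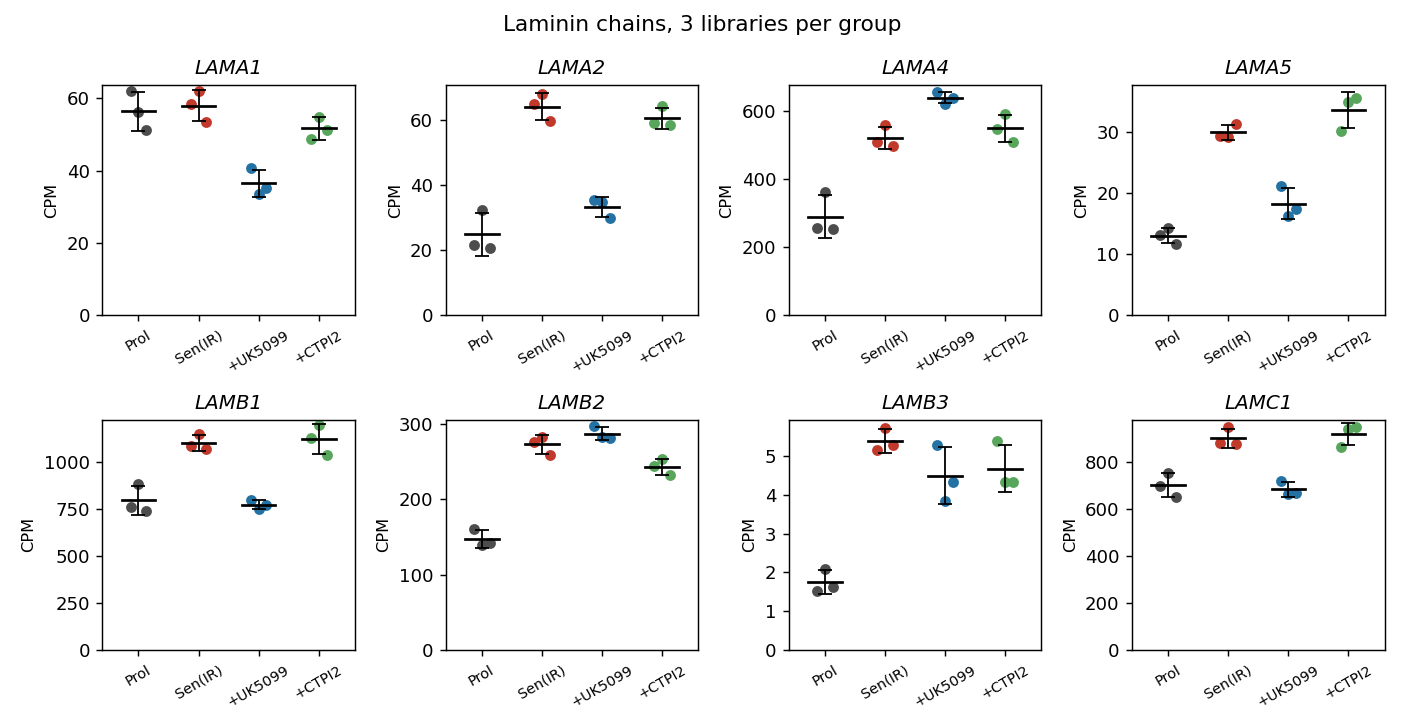
Level of 8 laminin chain genes in CPM from 0, with a point for each library, the mean as a line and the SD as a bar. LAMA2, LAMA5 and LAMB3 rise from Prol to Sen(IR), UK5099 lowers LAMA1, LAMA2, LAMA5 and LAMB1, and LAMA4 and LAMB2 are as high with UK5099 as in Sen(IR) or higher.

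Cadherins changed their order of abundance. CDH6 (ENSG00000113361, chromosome 5, 31193686 to 31329146), a cadherin of kidney and neural crest, held 124, 119.7 and 115 CPM in Prol, 291, 318 and 303 CPM in Sen(IR), 375, 365 and 368 CPM under UK5099 and 346, 364 and 361 CPM with CTPI2. Every irradiated library lay above Prol and both inhibitor groups above Sen(IR). The rise with irradiation was called (log2 fold change 1.35 ± 0.05, adjusted p = 2.55e-16 by edgeR), and the values with UK5099 (0.28) and CTPI2 (0.23) passed the p limit but not the fold limit. CDH2, or N-cadherin, fell, with 127, 103 and 116 CPM in Prol, 63.0, 61.4 and 63.6 CPM in Sen(IR), 46.3, 45.5 and 50.1 CPM under UK5099 and 59.4, 63.7 and 59.9 CPM with CTPI2 (log2 fold change −0.88 ± 0.07, adjusted p = 6.72e-11 for Sen(IR) against Prol). No irradiated library reached the lowest of Prol.

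CDH11, the cadherin of mesenchymal cells, held 209, 269.6 and 215 CPM in Prol and 357, 376 and 362 CPM in Sen(IR) and rose (log2 fold change 0.66 ± 0.07, adjusted p = 1.91e-08 by edgeR) and stood at 312 ± 10.3 CPM under UK5099. Of the cadherin sum per kilobase, CDH6 held 16.9 ± 0.392% in Prol, 31.7 ± 0.787% in Sen(IR), 39.8 ± 0.61% with UK5099 and 36.7 ± 0.362% with CTPI2, and CDH2 held 23.7 ± 2.47%, 9.47 ± 0.329%, 7.39 ± 0.305% and 9.07 ± 0.16%. CDH11 was first per kilobase in Prol and Sen(IR), and CDH6 was first with either inhibitor. The sum itself was 56.9 ± 0.953 in Prol and 77.1 ± 1.502 in Sen(IR), with 74.6 ± 1.64 under UK5099 and 78.3 ± 2.07 under CTPI2.

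CDH10, a cadherin of the nervous system, had counts of 0, 4 and 4 in Prol, 140, 138 and 141 in Sen(IR), 74, 72 and 85 with UK5099 and 114, 137 and 105 with CTPI2. It was near 0 in Prol and rose with irradiation (log2 fold change 5.85 ± 0.31, adjusted p = 1.59e-13 by edgeR), a fitted fold that rests on 8 Prol counts. With UK5099 it was lower than in Sen(IR) (log2 fold change −1.12 ± 0.18, adjusted p = 1.65e-05) and than with CTPI2 (−0.75). CDH18 was called higher in Sen(IR) at low counts (3, 0 and 4 in Prol and 10, 6 and 10 in Sen(IR), log2 fold change 2.04).

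Other cadherins lay near the limits. CDH4, or R-cadherin, held 20.8, 20.5 and 17.8 CPM in Prol, 14.1, 12.5 and 13.1 CPM in Sen(IR), 19.98, 17.1 and 19.3 CPM under UK5099 and 11.1, 11.5 and 11.2 CPM with CTPI2. It fell with irradiation (log2 fold change −0.57 ± 0.09, adjusted p = 9.23e-06 by edgeR) and was higher with UK5099 than with CTPI2 (log2 fold change 0.74 ± 0.09, adjusted p = 8.68e-07), the only gene of the 42 so called. CDH13, which lacks a cytoplasmic tail, held 117, 115 and 121 CPM in Sen(IR), 89.7, 81.5 and 79.1 CPM under UK5099 and 123, 122 and 119.6 CPM with CTPI2. It was lower with UK5099 than with CTPI2 (log2 fold change −0.54 ± 0.06, adjusted p = 7.40e-08 by edgeR). Against Sen(IR) its fall with UK5099 passed the p limit but not the fold limit. That fall was called with DESeq2, RLE scaling, no filter on low counts, the replicate block or the pair of groups fitted alone. It was also called when some single libraries were left out. CDH13 shares 21.4% of its exon bases with CDH13-AS2. CDH24 held 12.9, 12.98 and 11.4 CPM in Sen(IR) against 17.0, 17.5 and 18.5 CPM under UK5099, was called higher at 0.51 and fell under the limit without Sen(IR) replicate 3 (0.45), without UK5099 replicate 3 (0.47) and with RLE scaling or the pair of groups fitted alone (0.50 after rounding in both). CDH26 was called higher with UK5099 at counts of 2, 9 and 5 in Sen(IR) and 24, 21 and 14 with UK5099, and was not called without Sen(IR) replicate 1 (adjusted p = 0.074 by edgeR) or UK5099 replicate 1 (adjusted p = 0.0527).

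**Figure D5:**
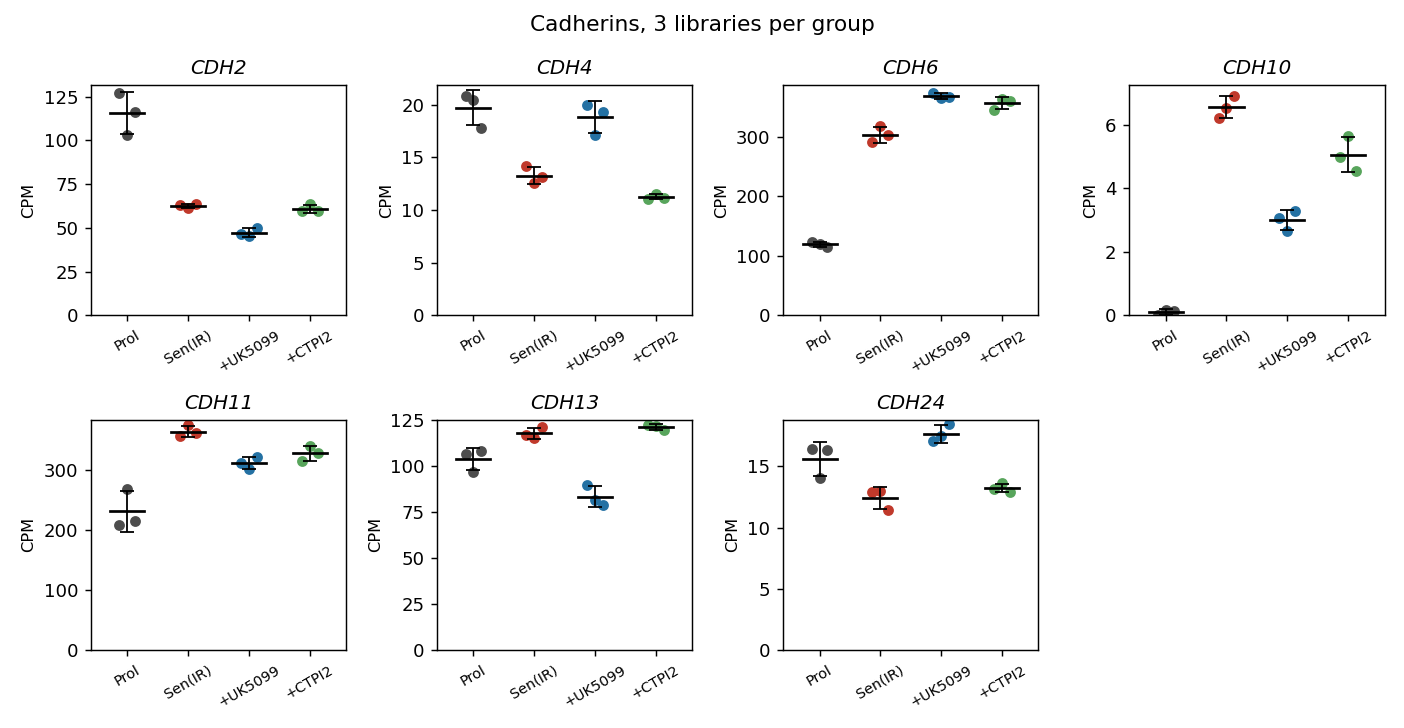
Level of 7 cadherin genes in CPM from 0, with a point for each library, the mean as a line and the SD as a bar. CDH6, CDH10 and CDH11 rise from Prol to Sen(IR) and CDH2 and CDH4 drop, and UK5099 lowers CDH10 while CDH4 is higher with UK5099 than with CTPI2.

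UK5099-treated senescent cells also differed from Prol, as a comparison of irradiation and inhibitor together. ITGA1, ITGA4 and ITGA5 were lower with UK5099 than in Prol, at −1.94 ± 0.06, −1.67 ± 0.07 and −1.50 ± 0.05 on the log2 scale, and CDH2 was lower at −1.29 ± 0.07. LAMA4, CDH6, ITGB5 and ITGAV were higher, at 1.14 ± 0.09, 1.63 ± 0.05, 0.89 ± 0.06 and 0.67 ± 0.06. The values of CTPI2 against Sen(IR) over the 42 genes ran from −0.58 for ITGA9 to 0.55 for CDH26, both genes of low counts. In this comparison ITGA5 had an SE of 0.05 and LAMB1 of 0.06. Their intervals, of −0.23 to −0.04 and −0.10 to 0.15, do not reach the fold limit. That of VCAM1, given above and also an abundant gene, was wider and crossed the limit, so abundant genes were not all measured as finely.

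The 27 genes that did not pass the filter never exceeded 18 counts in a library. Among them were CDH1, the cadherin of epithelium, CDH5, that of endothelium, and ITGB2, ITGAL, ITGAM and ITGAX, chains of the leukocyte beta2 integrins. ITGB4, ITGB6, ITGB7, ITGA2B, ITGAD, CDH3, CDH7, CDH8, CDH9, CDH12, CDH15, CDH16, CDH17, CDH19, CDH20, CDH22 and CDH23 complete the list with LAMC3, ICAM2, ICAM3 and ICAM4. Not every leukocyte integrin chain was absent: ITGAE, which is also one, passed the filter, and each library had between 427 and 763 of its counts. Fibroblast markers were all detected in every group, and summed they reached 21282 to 25320 CPM in Prol libraries and 20529 to 21111 CPM in Sen(IR) libraries, 10884 to 11376 CPM under UK5099 and 18132 to 19906 CPM under CTPI2. Epithelial markers summed to at most 2.48 CPM in any library. Leukocyte markers, mostly CD14, summed to 0.256 to 0.343 CPM in Prol libraries and 3.04 to 3.98 CPM in Sen(IR) libraries, 2.44 to 3.41 CPM under UK5099 and 3.81 to 4.95 CPM under CTPI2. Endothelial markers, nearly all TEK, summed to 157 to 206 CPM in Prol libraries and 355 to 367 CPM in Sen(IR) libraries, 207 to 236 CPM under UK5099 and 299.6 to 330 CPM under CTPI2. KDR, another endothelial marker, fell instead, with means of 4.21 CPM in Prol, 0.948 CPM in Sen(IR), 0.274 CPM under UK5099 and 1.03 CPM under CTPI2. TYROBP had no count in any library, and PECAM1 and CLDN5 were near 0. Among the fibroblast markers the mean of COL1A1 was 4710 CPM in Sen(IR) and 1599 CPM under UK5099, and that of DCN 1362 and 1361 CPM. COL1A2, COL3A1, PDGFRA and THY1 also fell with UK5099 and VIM fell less, while LUM and PDGFRB did not fall. The fibroblast sum and the TEK and CD14 levels moved with the groups as several adhesion genes did, and their part in these results was not tested.

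Genes that work with the adhesion receptors were read from 5 lists. Of 24 adaptor and focal adhesion genes, 2 were called higher and 11 lower in Sen(IR) against Prol, beside 24.8% and 22.4% of all genes, and 1 higher and 6 lower with UK5099 against Sen(IR), beside 8.76% and 12.1%. The same shares of all genes apply to the other lists. The higher one was KANK1 (0.53), a talin-binding adaptor, and the largest falls were TNS3 (−1.05), a tensin that binds beta tails, and ZYX (−0.67), zyxin of mature focal adhesions. Of 16 tested matrix ligands of integrins, 6 rose and 6 fell with irradiation, and 1 rose and 7 fell with UK5099. UK5099 libraries held 2.81, 1.70 and 2.05 CPM of POSTN, or periostin, and Sen(IR) libraries 66.9, 62.7 and 63.0 CPM (log2 fold change −4.88 ± 0.12, adjusted p = 4.25e-19 by edgeR), and TNC, or tenascin C, gave −2.03, while THBS1, or thrombospondin, gave 0.53. The medians of the list of adaptors and of ligands with UK5099 were −0.22 and −0.50, beside 0.01 for all genes.

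Of 12 basement membrane partners of laminins, 3 rose and 6 fell with irradiation and 1 rose and 3 fell with UK5099, namely NTN4 (0.75), a netrin of basement membranes, against COL4A1 (−0.83) and COL4A2 (−0.58), the collagen IV chains, among the falls. Of 8 tested catenins and other cytoplasmic partners of cadherins, 3 rose and 2 fell with irradiation and 1 rose and 2 fell with UK5099: AFDN (0.71) against JUP (−0.97), or plakoglobin, and PKP2 (−0.80), a plakophilin. Of 14 other immunoglobulin-type receptors, 7 rose and 3 fell with irradiation and 1 rose and 6 fell with UK5099, with JAM2 (0.77) higher and L1CAM (−0.997) and THY1 (−0.76) lower. With CTPI2 0 of the 73 tested genes of these 5 lists were called by edgeR, 15 had an unadjusted p under 0.05, beside 7.27% of all genes, and DESeq2 called 0. The medians with UK5099 were −0.17 for the basement membrane list, 0.15 for the cadherin partners and −0.30 for the immunoglobulin-type receptors.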

How the data were processed

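The 12 libraries were deposited as raw counts per gene, which the authors made from 2×150 bp Illumina reads trimmed with Trimmomatic 0.36, aligned to GRCh38 with STAR 2.5.2b and counted with featureCounts of Subread 1.5.2 over uniquely mapped exon reads. Strandedness of the kit is not given in the sources used here. Columns were mapped to groups by their labels, and none belonged to other samples.

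All libraries were fitted together in edgeR 4.0.16 under R 4.3.3 (filterByExpr, TMM, glmQLFit and glmQLFTest) with a term for each of the 4 groups, and with Benjamini-Hochberg adjustment across the 16251 genes tested. A call required an absolute log2 fold change over 0.5 as well. DESeq2 1.42.0, other scalings, filters, limits, pairs of groups alone, a replicate block and leaving out each library were tried as alternatives. In simulated data with known changes, edgeR recovered 96 of 100 genes changed 2-fold and 70 of 100 changed 1.5-fold, tested over 15924 genes, with 7 false calls. Changes were placed only in genes above a low expected count, and a single spread was used for all genes. The recovery therefore does not describe genes of low counts or wide spread. Exon lengths and positions came from GENCODE v44. Members, lists and the rule for named genes (all ICAM and VCAM1 genes, and within families the 3 called genes with the largest change in each direction among those with a mean log2 CPM above 0) were chosen with earlier results of these data known. Genes named outside that rule, such as ITGA6, ITGA9, ITGB1P1, ITGBL1, LAMA1, LAMA4, LAMB1, LAMB2, LAMB4, LAMC1, CDH18 and CDH26, were chosen after their values were seen. The values of 1 tested member are not reported here, though the counts and sums over the members include it. The comparisons against Sen(IR), and those against Prol, share libraries.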

Additional observations from a re-analysis of the deposited data

How the results depend on the processing

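Over 93 gene results and their 1395 alternatives, 1317 kept direction and call and 77 kept direction but lost the call. Of the 77, 40 fell under the stricter fold limit, which removes smaller changes by its construction. A call was gained by 1, and 0 reversed. These 93 are the results called in the main edgeR fit and those of the ICAM and VCAM1 genes, so few could gain a call. The settings with unadjusted p or no fold limit can remove none. Outside the 93 calls were gained, such as CDH13 in UK5099 against Sen(IR) with DESeq2 and with RLE scaling. DESeq2 and the fit with no filter also called some genes that had not passed the filter, all at low counts. These were ITGAM, ITGAX and CDH23 in Sen(IR) against Prol and ICAM2 in UK5099 against Sen(IR). In UK5099 against Prol they were CDH3, CDH23, ITGAX and ITGB7. The limit on fold change moved the counts most: with a limit of 1 in place of 0.5, 16 of the 42 genes were called in Sen(IR) against Prol, 8 in UK5099 against Sen(IR) and 6 in UK5099 against CTPI2, and with no limit 36, 32 and 26 were called in the same order, and 4 (ICAM1, ITGA1, ITGA8 and CDH6) in CTPI2 against Sen(IR). The limit moved all 16251 genes tested as well. Of these, 4030, 1511 and 1417 were called with a limit of 1, in the same order. With no limit 11158, 7384 and 7227 were called, and 79 in CTPI2 against Sen(IR). Leaving out each library gave 28 to 31 calls in Sen(IR) against Prol, 16 to 17 in UK5099 against Sen(IR), 0 to 0 in CTPI2 against Sen(IR), 14 to 16 in UK5099 against CTPI2 and 26 to 28 in UK5099 against Prol. Among all genes tested these fits called 7387 to 7709, 3113 to 3352, 15 to 21, 2943 to 3171 and 8331 to 8608 in that order. Upper-quartile scaling moved the median of all genes to 0.14 in Sen(IR) against Prol and 0.15 in UK5099 against Prol. Replicate numbers did not pair the libraries (18 pairs, 0 with a correlation of deviations over 0.1, and 6 in which the own number was best), and the replicate block gave 30, 19, 0, 15 and 26 calls in the same order of comparisons. Among all genes tested the block gave 7649, 3360, 25, 3204 and 8605 calls. Low counts limit ITGA9, ITGA10, LAMB4, CDH10, CDH18 and CDH26.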
